A study of Mus musculus with 6 samples.

Results

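The regions described here are short stretches of the mouse genome that a chromatin state map of hematopoietic stem cells (HSCs) assigned to states 4 and 6 alone. The map divides the genome into 18 numbered states in bins of 200 bp. Touching segments of states 3, 4, 5 and 6 on the 19 autosomes were joined into runs, which gave 15431 runs. Runs shorter than 4000 bp that held state 4, state 6 or both, and neither state 3 nor state 5, were kept. There were 3729 of them, 24.2% of all runs, covering 4366.4 kb or 0.177% of the autosomes. They were chosen on the state calls themselves, so their make-up, length and neighbouring states are descriptions, and tests are given only for gene annotation and promoter sequence, which the selection did not use. The same joining gave 3685 short runs of states 3 and 5 only and 7318 short mixed runs, which hold at least 1 state of each pair. The other 699 runs were 4000 bp or longer.

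The series profiled the histone variant H3.3 in HSCs of adult C57BL/6 mouse bone marrow, with 2 wild-type H3.3 ChIP libraries, 2 HIRA KO H3.3 ChIP libraries, 1 wild-type input and 1 HIRA KO input. Per the labels' protocols, the mice received 2 intraperitoneal doses of 20 ug of poly(I:C), a double-stranded RNA mimic that also elicits an interferon response, and the sort took place 7 days after the first of them. In the HIRA KO mice this induced a conditional Hira deletion in the hematopoietic system; the labels do not name the Cre line, and the treatment is described without a distinction by genotype. H3.3-bearing nucleosomes were pulled down from nuclease-digested (MNase) chromatin with an anti-H3.3 rat monoclonal antibody. The single map analysed is tied to wild-type HSCs by its file name only, and its input tracks are not given in the sources at hand. It carries no counts, no replicates and no knockout column, so the depth is unknown and wild-type and HIRA KO cells were not compared here.

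H3.3 is the histone H3 variant that is placed into chromatin outside DNA replication, and HIRA is the chaperone that places it at active genes and regulatory elements. A chromatin state map assigns each bin to the combination of marks that a hidden Markov model finds there. State numbers follow the model and carry no meaning of their own. Promoters of widely used genes in mammals are usually rich in CpG and often carry binding motifs for general activators such as SP/KLF, ETS, NRF1, YY1 and ZNF143 proteins.

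Of 16457 protein-coding genes with a listed start on 18 autosomes, 1372 began inside one of these runs, which is 8.34% of those genes. They made up 15.8% of the 8683 genes that began in any run of states 3 to 6. The promoters of 8 of these genes are printed to show the sequence at starts inside the runs. They are the first 2 list members that begin in a run and hold the motif, for each of the 4 motifs that stood highest over all promoters as a ratio of shares. Each runs 5′ to 3′ on the strand of the gene, from RefSeq's promoter table for GRCm38.p6 (the assembly of mm10), with 250 bases before the start and 50 from it on. Capitals mark the motif or its reverse complement. Bub1b, a kinase of the spindle checkpoint (chr2:118597961-118598260, + strand), and Ndufc2, a subunit of mitochondrial complex I (chr7:97399753-97400052, + strand), hold the ZNF143 motif ACTACAAT. Fancf, of the Fanconi anemia core complex (chr7:51862218-51862517, - strand), and Rps18, a protein of the small ribosomal subunit (chr17:33955616-33955915, - strand), hold the YY1 motif ATGGCGGC. Xpa, a nucleotide excision repair factor (chr4:46196262-46196561, - strand), and Bax, a pro-apoptotic protein (chr7:45466849-45467148, - strand), hold the NRF1 motif GCATGCGC. Aurka, a kinase of the mitotic spindle (chr2:172370521-172370820, - strand), and Palb2, the partner of Brca2 in recombination (chr7:122132897-122133196, - strand), hold the ETS motif CCGGAAG.
Bub1b: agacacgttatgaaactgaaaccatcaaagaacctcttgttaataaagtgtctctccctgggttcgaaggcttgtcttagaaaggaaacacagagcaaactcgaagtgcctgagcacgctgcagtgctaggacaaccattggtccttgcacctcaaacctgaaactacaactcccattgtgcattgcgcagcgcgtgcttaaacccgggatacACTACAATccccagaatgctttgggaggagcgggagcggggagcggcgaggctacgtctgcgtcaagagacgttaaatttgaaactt
Ndufc2: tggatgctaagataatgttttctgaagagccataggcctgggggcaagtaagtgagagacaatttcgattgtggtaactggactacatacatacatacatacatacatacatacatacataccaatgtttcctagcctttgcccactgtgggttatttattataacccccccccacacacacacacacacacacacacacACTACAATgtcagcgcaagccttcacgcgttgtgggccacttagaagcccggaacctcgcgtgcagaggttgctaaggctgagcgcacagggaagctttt
Fancf: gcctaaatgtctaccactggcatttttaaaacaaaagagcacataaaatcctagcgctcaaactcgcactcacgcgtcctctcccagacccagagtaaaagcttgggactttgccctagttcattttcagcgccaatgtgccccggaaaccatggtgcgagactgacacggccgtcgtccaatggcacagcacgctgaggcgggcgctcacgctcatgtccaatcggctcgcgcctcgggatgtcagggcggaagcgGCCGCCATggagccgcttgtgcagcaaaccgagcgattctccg
Rps18: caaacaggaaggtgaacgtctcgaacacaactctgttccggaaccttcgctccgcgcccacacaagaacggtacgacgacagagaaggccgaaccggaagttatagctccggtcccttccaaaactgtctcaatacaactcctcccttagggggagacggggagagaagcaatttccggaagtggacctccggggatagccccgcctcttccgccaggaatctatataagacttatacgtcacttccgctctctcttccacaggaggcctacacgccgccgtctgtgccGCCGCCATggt
Xpa: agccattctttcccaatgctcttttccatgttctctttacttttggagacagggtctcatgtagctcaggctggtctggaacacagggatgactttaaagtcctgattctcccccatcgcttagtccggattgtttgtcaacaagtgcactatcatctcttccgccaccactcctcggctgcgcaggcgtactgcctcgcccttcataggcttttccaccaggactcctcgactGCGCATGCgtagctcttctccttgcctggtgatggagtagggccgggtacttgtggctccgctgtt
Bax: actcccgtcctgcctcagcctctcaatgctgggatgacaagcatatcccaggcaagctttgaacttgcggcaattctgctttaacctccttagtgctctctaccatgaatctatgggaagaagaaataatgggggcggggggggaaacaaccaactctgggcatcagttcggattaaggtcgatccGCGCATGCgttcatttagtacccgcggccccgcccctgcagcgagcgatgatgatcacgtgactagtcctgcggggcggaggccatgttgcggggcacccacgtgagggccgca
Aurka: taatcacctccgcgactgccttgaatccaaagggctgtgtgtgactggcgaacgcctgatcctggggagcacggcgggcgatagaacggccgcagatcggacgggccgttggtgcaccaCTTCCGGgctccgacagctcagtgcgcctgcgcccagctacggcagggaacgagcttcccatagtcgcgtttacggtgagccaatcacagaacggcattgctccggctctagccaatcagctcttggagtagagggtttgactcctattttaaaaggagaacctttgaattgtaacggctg
Palb2: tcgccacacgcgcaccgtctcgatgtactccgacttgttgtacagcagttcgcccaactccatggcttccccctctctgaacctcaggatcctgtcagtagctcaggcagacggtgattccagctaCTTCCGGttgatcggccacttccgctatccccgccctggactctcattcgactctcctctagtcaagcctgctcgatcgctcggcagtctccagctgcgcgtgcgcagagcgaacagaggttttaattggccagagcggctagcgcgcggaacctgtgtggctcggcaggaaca

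Positions count the start as 1 and the base before it as -1. In these windows the first capital lay at -37 in Bub1b and at -50 in Ndufc2. It lay downstream of the start, at 8 and 40, in Fancf and Rps18. It lay at -16 in Xpa and -64 in Bax, and at -131 in Aurka and -124 in Palb2. The capitals show the motif as written in Bub1b and Ndufc2. In Fancf, Rps18, Xpa, Bax, Aurka and Palb2 they show its reverse complement. The GC content ran from 47.3% in Ndufc2 to 59.7% in Palb2. The ratio of observed to expected CpG, which is 1 where CpG is as frequent as the C and G content gives, was 0.48 in Ndufc2 and 1.03 in Fancf. A match describes the letters in the window and does not show that a factor binds there.

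Most run ends were in state 6. State 6 alone made up 1393 runs (37.4%), state 4 alone 282 (7.56%), and 2054 (55.1%) held both. The pattern 6-4-6 was the most frequent of those with both, with 951 runs, and 6-4-6-4-6 followed with 297. Among runs with both states, 1281 (62.4%) had state 6 at both ends and 61 had state 4 at both ends. Over all members, 81.3% of run ends were in state 6, a share that includes the runs of state 6 only. State 6 took 59.6% of the bases and state 4 took 40.4%. These runs held 35.0% of all state 6 bases of the autosomes and 29.7% of all state 4 bases.

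The lengths had a peak at 1 bin and a broad second range above 800 bp, and gene starts lay almost all in the latter. The median was 1200 bp, with quartiles of 400 and 1800 bp, against medians of 1600 bp for the short runs of states 3 and 5 and 2200 bp for the mixed runs. On the 18 autosomes with listed starts, 814 runs were a single bin of 200 bp, 96 were 600 bp long, and 342 were 1000 bp long. Of the 814 single bins, 5 (0.614%) held the start of a protein-coding gene. The share rose to 12.1% at 800 to 1000 bp, 39.8% at 1200 to 1400 bp, 64.9% at 1600 to 1800 bp and 81.6% at 2400 to 3800 bp. Over the same lengths the share of runs more than 5 kb from any gene start went from 60.8% to 1.88%. That distance uses listed starts, and both ends of records without one. The make-up followed the same axis. Of runs with both states 55.5% held a start, against 8.27% of the 1342 runs of state 6 only and 10.6% of the 274 runs of state 4 only, of which 50.4% and 50% were 1 bin long.

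**Figure D1:**
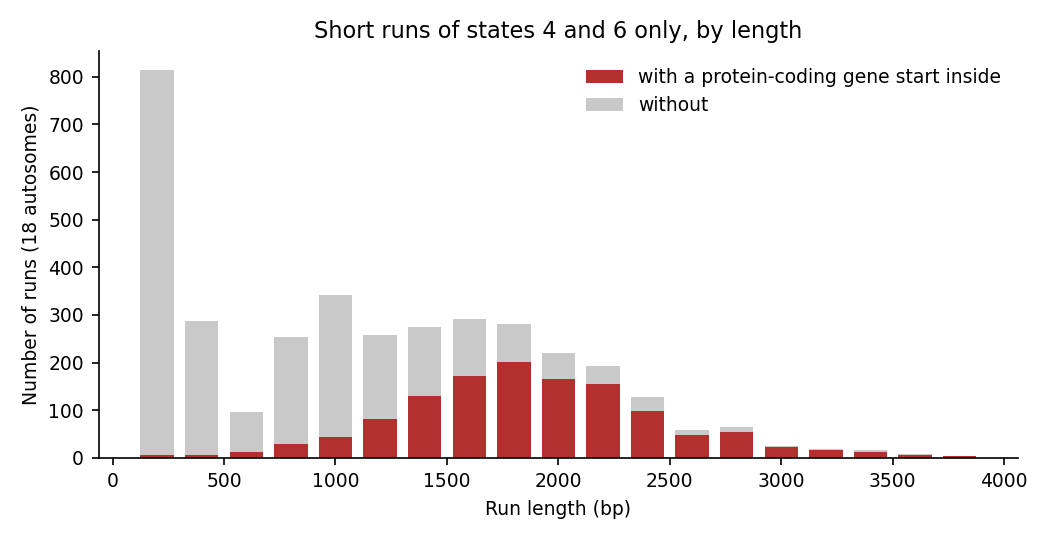
Number of short runs of states 4 and 6 only (vertical axis) by run length in bp (horizontal axis) on 18 autosomes; red marks runs with a protein-coding gene start inside and grey the others. The 814 runs of 200 bp are nearly all grey, with 5 starts, and red prevails from 1600 bp on.

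The states beside the runs differed between the kinds of short run, as a description of the same segmentation. State 17 touched 55.9 ± 3.61% of their sides (mean and SD over 19 autosomes, between 50.4% and 65.6%). State 18 touched 15.9 ± 3.72% and state 2 touched 15.6 ± 2.82%. States 16 and 1 touched 3.04 ± 0.90% and 0.74 ± 0.39%. Short runs of states 3 and 5 lay mostly beside states 16 (54.4 ± 2.84%) and 1 (24.9 ± 2.93%), with 9.87 ± 1.43% of sides in state 17. The ranges over autosomes of these 2 kinds of run did not overlap for any of the 5 states. Mixed runs lay between them, with 38.5 ± 1.66% of sides in state 17 and 29.2 ± 1.85% in state 16. State 17 on both sides was the most frequent setting, with 1310 member runs (35.1%). The segments of state 17 beside the runs had a median length of 2400 bp, those of state 18 6800 bp and those of state 2 400 bp.

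**Figure D2:**
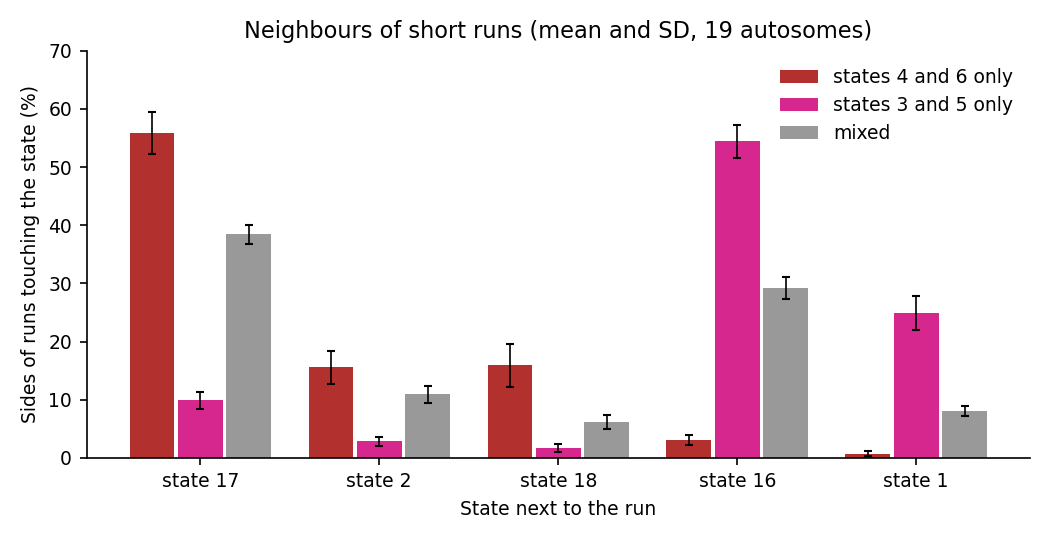
Share of the sides of short runs that touch states 17, 2, 18, 16 and 1 (vertical axis, percent); bars are means and error bars SD over 19 autosomes, for runs of states 4 and 6 only, runs of states 3 and 5 only and mixed runs. State 17 leads beside runs of states 4 and 6 at 55.9%, and state 16 beside runs of states 3 and 5 at 54.4%.

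Runs of states 4 and 6 held gene starts less often than either other kind of short run. A protein-coding start lay in 1260 of 3633 runs (34.7%; 34.02 ± 6.01% over 18 autosomes, from 27.05% on chromosome 1 to 51.3% on chromosome 7). The share was 41.0% for runs of states 3 and 5 and 67.8% for mixed runs. The mean difference from runs of states 3 and 5 was -6.64 ± 6.52 percentage points, lower on 15 of 18 autosomes (adjusted p = 0.00442, two-sided permutation test with signs flipped over autosomes, Benjamini-Hochberg over 32 tests). From mixed runs it was -33.2 ± 6.48 points, lower on 18 of 18 (adjusted p = 0.00048, same permutation test). Mixed runs span at least 400 bp by definition, so none is a single bin, the length at which starts were rarest. The difference from mixed runs was smaller, at -21.3 points, among runs under 2000 bp (adjusted p = 0.00048, permutation test). Without runs of 1 bin it was -23.5 points (adjusted p = 0.00048, permutation test). The autosomes describe variation along 1 map and not between animals. The difference from runs of states 3 and 5 did not hold when either the longest or the shortest runs were left out. Among runs under 2000 bp it was 0.94 points with the opposite sign (adjusted p = 0.750, permutation test), and without runs of 1 bin it was -2.45 points (adjusted p = 0.294, permutation test).

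Another 1189 runs (32.7%, and 33.3 ± 5.57% over autosomes) lay more than 5 kb from any gene start (a listed start, or either end of a record without one). The far ends of genes with a listed start were not counted, so such a run can lie within a gene. The share of distant runs was 25.3% for runs of states 3 and 5 and 9.89% for mixed runs. The mean difference was 7.52 ± 5.89 points from runs of states 3 and 5, higher on 16 of 18 autosomes (adjusted p = 0.000853, permutation test). It was 23.4 ± 5.19 points from mixed runs, higher on 18 of 18 (adjusted p = 0.00048, permutation test). Here too the call against runs of states 3 and 5 was lost, at 3.33 points among runs under 2000 bp (adjusted p = 0.186, permutation test). It was also lost without runs of 1 bin, at 3.31 points (adjusted p = 0.0913, permutation test). The distance difference from mixed runs shrank to 17.1 points under the first setting and 15.3 points under the second (adjusted p = 0.00048 for each, permutation test). Of the remaining runs, 86 held the start of a long noncoding RNA only. A further 588 held no listed start but lay within 1 kb of a gene start so defined, and 510 lay between 1 and 5 kb away. The 588 can include runs that hold the start of a gene without a listed start. Either end of a protein-coding record lay in 37.7% of member runs on the 19 autosomes.

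Around the 1372 starts the runs extended further into the gene than away from it. A median of 703.5 bp of run (quartiles 517 and 966.25 bp) lay upstream of the start and 1147 bp (quartiles 899.5 and 1377 bp) downstream, and 1075 genes (78.4%) had the longer part downstream. The start itself lay in state 6 for 800 genes (58.3%) and in state 4 for 572 (41.7%). State 4 was highest on either side of that point, at 47.1% of genes 200 bp upstream and 58.2% of genes 400 bp downstream. Beyond the run, state 17 took over on both sides, at 54.4% of genes 2000 bp upstream and 60.9% at 2000 bp downstream. The flanks differed in the other states. At 4000 bp upstream 21.9% of genes were in state 18 and 12.0% in state 8, and at 4000 bp downstream 7.65% and 32.4%. State 18 touched the upstream edge of the run for 245 genes and the downstream edge for 64, while state 8 touched these edges for 37 and 107 genes.

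**Figure D3:**
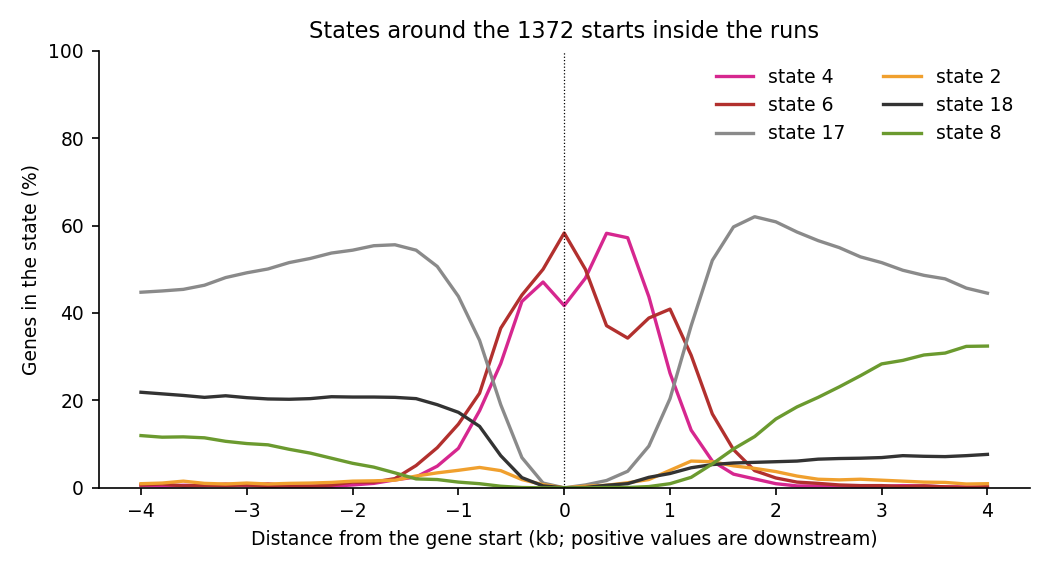
Share of the 1372 genes (vertical axis, percent) whose bin is in state 4, 6, 17, 2, 18 or 8, by distance from the gene start in kb along the direction of transcription (horizontal axis). State 6 peaks at the start (58.3%), state 4 dips there (41.7%) and peaks 400 bp downstream (58.2%), and state 8 reaches 32.4% at 4000 bp downstream.

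The promoters of these genes were richer in CpG than all protein-coding promoters, and slightly poorer in it than those in mixed runs. Over all 16457 promoters the median ratio of observed to expected CpG was 0.595 and the median GC content 56.7%, a comparison that was not tested. Their median ratio of observed to expected CpG was 0.748 (0.747 ± 0.054 over 18 autosomes) and their median GC content 60.0%. The CpG ratio was 0.753 in promoters of runs of states 3 and 5 (mean difference -0.01 ± 0.06, adjusted p = 0.562, permutation test). In mixed runs it was 0.804 (mean difference -0.06 ± 0.06, lower on 15 of 18 autosomes, adjusted p = 0.00248, permutation test). GC content was 60.3% in runs of states 3 and 5 (adjusted p = 0.987, permutation test) and 62.0% in mixed runs (mean difference -1.64 ± 1.99 points, lower on 14 of 18 autosomes, adjusted p = 0.0143, permutation test). Without runs of 1 bin both differences from mixed runs still passed. They were -0.057 for the CpG ratio (adjusted p = 0.00384, permutation test) and -1.62 points for GC content (adjusted p = 0.0213, permutation test). Under a limit of 2000 bp, which left 700 member promoters, they did not pass, and runs of matched length were not compared. Among runs under 2000 bp the CpG difference was -0.0071 (adjusted p = 0.926, permutation test) and the GC difference was 0.94 points with the opposite sign (adjusted p = 0.647, permutation test). Within the members, the median CpG ratio was 0.498 for the 72 genes in runs of 800 to 1000 bp and 0.581 for the 219 genes in runs of 1200 to 1400 bp. Both lie below the 0.595 of all promoters. It was 0.725 for the 385 genes in runs of 1600 to 1800 bp and 0.880 for the 326 genes in runs of 2400 to 3800 bp.

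Exact matches to 12 motifs were counted in the promoter windows on both strands. Those with the highest shares relative to all 16457 promoters were ZNF143 (ACTACAAT, 1.97% of the members' promoters and 0.936% of all), YY1 (ATGGCGGC, 6.78% and 3.29%), NRF1 (GCATGCGC, 7.29% and 3.66%) and ETS (CCGGAAG, 21.0% and 12.3%). The SP/KLF motif GGGCGG was in 63.0% and 47.3%, the cyclic AMP response element TGACGTCA in 3.50% and 2.42%, the E-box CACGTG in 11.4% and 7.96%, and the ZBTB33 motif CTCGCGAG in 1.68% and 1.28%. The CCAAT box (CCAAT) was in 38.4% and 38.9%, and the RUNX motif ACCACA in 13.6% and 14.9%. The TATA box (TATAAA) was in 5.90% against 13.5% of all promoters, and the GATA motif AGATAA in 4.96% against 9.87%. None of these motifs lies within another. All promoters include those of genes in no run, so these ratios were not tested.

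Against the other short runs, 2 of the 24 motif comparisons passed the test. The kinds of run differ in length, and no motif comparison was made under a length limit, so the part of length was not tested. The SP/KLF motif was in 63.0% of members' promoters and 69.9% of those in mixed runs, a mean difference of -6.35 ± 7.12 points, lower on 14 of 18 autosomes (adjusted p = 0.00715, permutation test). The NRF1 motif was in 7.29% and in 4.97% of promoters in runs of states 3 and 5, a mean difference of 2.41 ± 3.39 points, higher on 14 of 18 (adjusted p = 0.0318, permutation test). With each autosome left out in turn, this difference stayed between 2.05 and 2.69 points. Its adjusted p ran from 0.0192 to 0.0647 over those 18 permutation tests and was above 0.05 without chromosome 2, 8, 9, 10, 15, 16 or 17. NRF1 was in 6.15% of promoters in mixed runs, a mean difference of 0.91 ± 2.41 points that did not pass (adjusted p = 0.315, permutation test). For YY1 the share was 6.78%, against 4.13% in runs of states 3 and 5 (adjusted p = 0.118, permutation test). In mixed runs the YY1 share was 6.19% (adjusted p = 0.533, permutation test), and neither YY1 comparison passed. The ETS motif stood at 21.0%, 20.6% and 21.2% in runs of states 4 and 6, runs of states 3 and 5, and mixed runs (adjusted p = 0.987 and 0.741, permutation test). Within the members, motif shares varied with run length. NRF1 was in 1.39% of promoters in runs of 800 to 1000 bp, 9.80% at 2000 to 2200 bp and 6.75% at 2400 to 3800 bp. For ETS these shares were 9.72%, 27.4% and 23.6%.

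**Figure D4:**
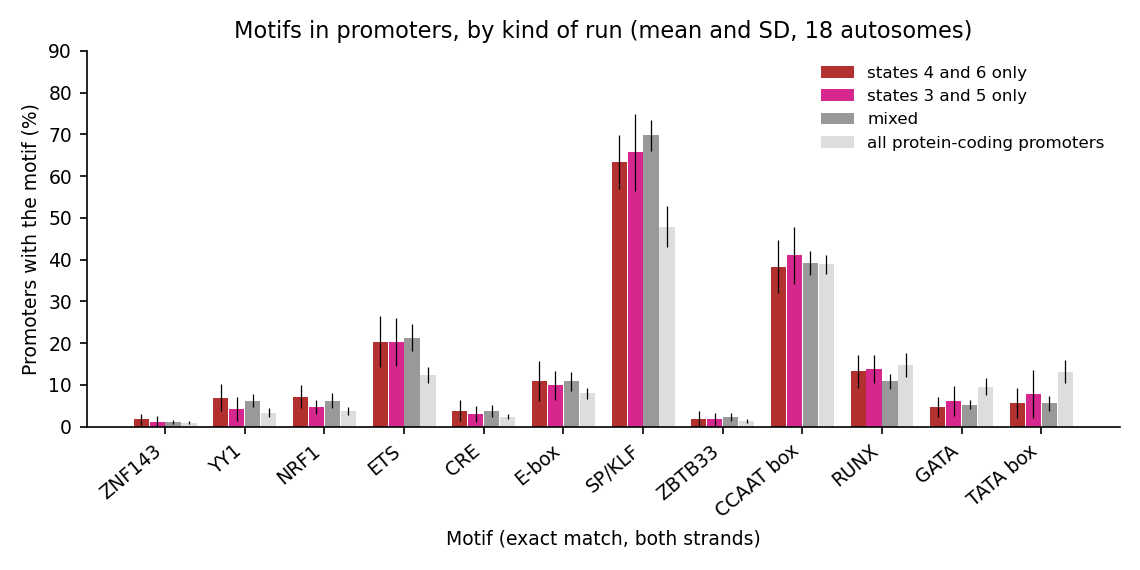
Share of promoters with an exact match to each of 12 motifs (vertical axis, percent; both strands of 300 bases), for genes that start in runs of states 4 and 6 only, runs of states 3 and 5 only, mixed runs, and for all protein-coding genes with a listed start; bars are means and lines SD over 18 autosomes. The SD lines of the 3 kinds of run overlap for all 12 motifs, and the TATA box and GATA bars are higher for all promoters than for the members.

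Several lists of cell machinery had more than 8.34% of their members, the share over all genes with a listed start, beginning in the runs. Blood lineage lists, housekeeping reference genes and glycolysis had 0 or 1. Most blood lineage lists had few members in any run, as given below. The RNA polymerase subunits had 8 of 22 members with a start in a member run (36.4%). Polr1a and Polr1b, the 2 large subunits of RNA polymerase I, began in runs of 2800 and 1800 bp, and Polr1c, shared by RNA polymerases I and III, in a run of 2400 bp, while Polr1d began in a mixed run. The NADH dehydrogenase family had 12 of 40 (30%), with Ndufa10, Ndufa5 and Ndufa8 of mitochondrial complex I in runs of 2400, 2200 and 1600 bp, and Ndufa11 in a mixed run. Proteasome genes had 8 of 39 (20.5%): Psmb5, a catalytic subunit, and Psmc1 and Psmd6 of the regulatory particle began in runs of 2000, 1800 and 1800 bp. For comparison, the mitochondrial ribosomal proteins had 11 of 68 (16.2%), with Mrpl2, Mrpl27 and Mrpl35, and the cytosolic ribosomal proteins 10 of 61 (16.4%), with Rpl35a, Rplp0 and Rplp2. Since almost every such gene began in some run, the share among genes in any run, 15.8% over all genes, is the closer reference: it was 36.4% for RNA polymerase subunits, 30.8% for the NADH dehydrogenase family, 21.1% for proteasome genes, 16.2% for mitochondrial and 17.5% for cytosolic ribosomal proteins.

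Counts for the other lists of cell machinery follow, to be read beside the 8.34% of all genes and the 15.8% of genes in any run. Among genes in any run, spliceosome factors (13.5%), Mediator (12.5%), the tricarboxylic acid cycle (11.1%), translation initiation factors (10%), the anaphase-promoting complex (10%), vacuolar sorting genes (9.52%), solute carriers (14.6%) and ubiquitin-conjugating enzymes (4.17%) stood below 15.8%. The RNA exosome (25%), tRNA synthetases (20%), Zfp genes (19.5%), DEAD and DEAH box helicases (19.5%), autophagy (19.05%) and TMEM genes (17.5%) stood above it. Aminoacyl-tRNA synthetases had 5 of 26 members in the runs, with Aars, Aars2 and Farsa, and Cars2 in a run of states 3 and 5. The DEAD and DEAH box helicases had 8 of 45, with Ddx28, Ddx51 and Dhx32, and Zfp zinc finger genes 52 of 325 (16.0%), with Zfp101, Zfp108 and Zfp112. Spliceosome factors, a family collected by gene symbol, had 5 of 38, with Prpf8, the core protein of the catalytic centre, in a run of 2200 bp. Members of a family collected this way need not all act in the process named. Mediator had 3 of 24 (Med17, Med21 and Med27), the RNA exosome 2 of 8 (Exosc2 and Exosc5), and translation initiation factors 4 of 41, of which Eif2b4 and Eif2b5 are subunits of the exchange factor for eIF2. Vacuolar sorting genes had 2 of 22 (Vps50 and Vps52), the anaphase-promoting complex 1 of 10 (Anapc11) and ubiquitin-conjugating enzymes 1 of 27 (Ube2l3). Solute carriers had 20 of 282 (7.09%) and TMEM genes 21 of 184 (11.4%). For autophagy the count was 4 of 22, with Atg3, Atg4d and Atg9a in runs of 2800, 2000 and 3000 bp. The tricarboxylic acid cycle had 2 of 18, Idh2 and Suclg2, which make alpha-ketoglutarate and succinate in mitochondria, and glycolysis had 0 of 19.

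Cell cycle and DNA repair lists each had 6 members in the runs. Among genes in any run, of which 15.8% began in a member run, the share was 25% for the cell cycle, 18.2% for DNA repair, 13.0% for the interferon list and 8.33% for the p53 list, so that the last 2 lay below that reference. For the cell cycle this was 6 of 25 (24%), with Cdk1, the kinase that drives entry into mitosis, in a run of 2800 bp, Aurka in 1 of 3200 bp and Mcm2, of the replicative helicase, in 1 of 2000 bp. Mki67 began in a mixed run. For DNA repair it was 6 of 34 (17.6%), with Xrcc3, Palb2 and Fancf in runs of 2600, 2400 and 2200 bp, and Brca1 in a mixed run. Palb2 and Fancf, whose promoters are printed above, both had the pattern 6-4-6 with state 17 on both sides. Of the p53 list 1 of 13 began in a run, Bax (1600 bp), with state 17 upstream and state 8 downstream, and Trp53 itself began in a run of 4000 bp or longer. Of the interferon list it was 3 of 24 (12.5%): Ifit1, Oas3 and Oasl2, which are antiviral effectors, in runs of 1400, 1200 and 2200 bp. Their promoters were poor in CpG, with ratios of 0.21, 0.14 and 0.27. The poly(I:C) treatment is given in the labels of every library, and no untreated cells were analysed here.

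None of the 26 HSC regulators and markers with a listed start began in a member run, although 24 began in some run: 19 in runs of 4000 bp or longer, 7 in mixed runs and 2 in runs of states 3 and 5, where genes with several starts count more than once. Gata2, a regulator of stem cell maintenance, began in a run of 4000 bp or longer. The lists for megakaryocytes (0 of 16), neutrophils and monocytes (0 of 18), B cells (0 of 16), T and NK cells (0 of 18) and stroma and endothelium (0 of 8) had none either. In the same order, 5, 2, 2, 2 and 2 of their members began in any run. The erythroid list had 1 of 22, with 9 in any run. The 1 was Urod, an enzyme of heme synthesis used in all cells, in a run of 3000 bp, while Klf1 began in state 17. None began in a member run among H3.3 genes and chaperones (0 of 14), Polycomb and Trithorax genes (0 of 16) or housekeeping reference genes (0 of 21), all of which except 3 Polycomb and Trithorax genes began in runs of other kinds. The count was also 0 for developmental regulators (34 genes), Hox genes (22), neuronal (13) and liver genes (18), potassium channels (68) and olfactory and vomeronasal receptors (1258). In that order, 0, 6, 2, 1, 9 and 1 of these began in any run. Where few members began in any run, a count of 0 says little about the list. These counts stand beside the 8.34% of all genes and the 15.8% of genes in any run, and no list was tested.

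**Figure D5:**
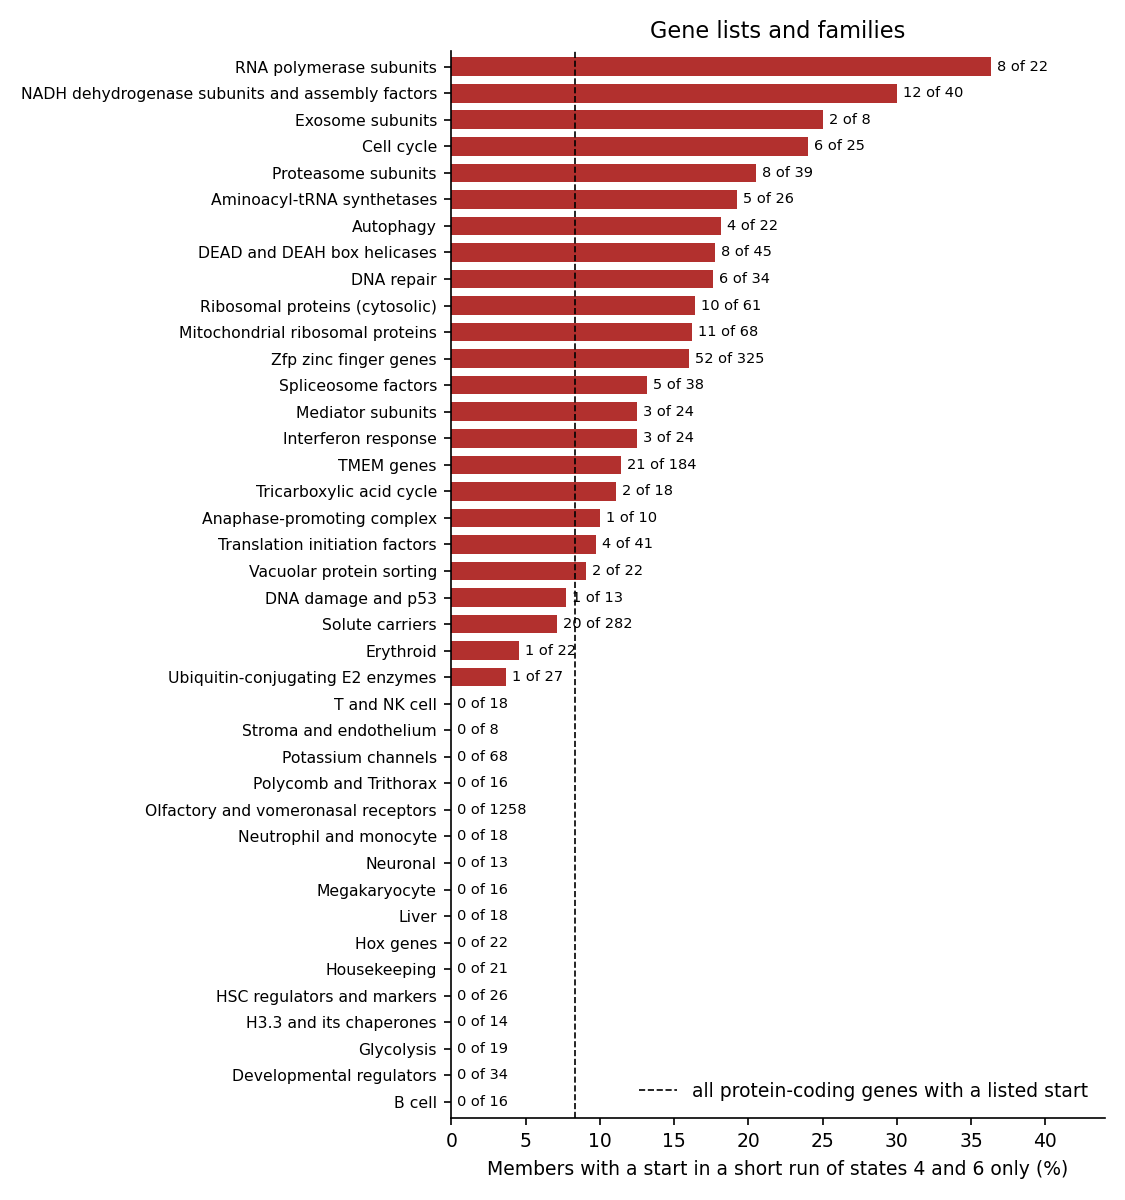
Share of the members of 40 gene lists and families that start in a short run of states 4 and 6 only (horizontal axis, percent), with the counts beside each bar; the dashed line is the 8.34% of all protein-coding genes with a listed start. RNA polymerase subunits (8 of 22) stand highest, and 16 lists stand at 0. The closer reference for lists whose members nearly all begin in some run, 15.8% of genes in any run, is not drawn. Some lists above the dashed line, such as Mediator and spliceosome factors, stand below that reference.

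The genes that began in the runs had a median record of 18.992 kb, with an SD of 5.55 kb over autosome medians. The median was 27.2 kb for genes in runs of states 3 and 5, 24.1 kb in mixed runs and 23.4 kb in runs of 4000 bp or longer. For all genes with a listed start it was 17.3 kb, and none of these differences was tested. A further 54 of the 1372 (3.94%) had another listed start in another kind of run.

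Some runs served 2 genes. In 114 of the 1260 runs with a protein-coding start (9.05%), starts lay on both strands, against 6.02% of runs of states 3 and 5 and 10.9% of mixed runs, a difference that was not tested. In 98 of the 114 the closest starts pointed away from each other, a median of 124.5 bp apart (quartiles 60.25 and 217.75 bp). The closest pairs were Gm46382 and Cep170b (8 bp), Snap47 and Jmjd4 (11 bp) and Bag5 and Coa8 (13 bp), head to head, and Ddx28 and Dus2 (8 bp) and LOC115488278 and Entpd4b (16 bp), whose transcribed parts overlap. Snap47 belongs to the SNARE proteins of membrane fusion, and Bag5 is a co-chaperone of Hsp70.

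The longest member runs are given with their neighbours in length, without a test. Just inside the limit were 3 runs of 3800 bp and 7 of 3600 bp. The first of these (chr17:33953401-33957200) held the head-to-head starts of Rps18 and Vps52, the second (chr17:33997601-34001400) that of H2-K1 and the third (chr2:34770801-34774600) that of Hspa5, the chaperone of the endoplasmic reticulum. At 3600 bp lay the runs of Rnf217, Jmjd6 with Mettl23, Slc39a7 with Rxrb, H2-D1, Csf2ra and Septin11, the last outside the 8 longest by a tie in length. H2-K1 and H2-D1 are classical class I histocompatibility genes whose sequences are near copies, so reads may have been shared between them. Just outside the limit were 3 runs of 4000 bp, 1 with the starts of Actr1a and Sufu and 1 with that of Ythdf2, and 3 of 4200 bp, of which 1 held Usp7 and 1 held Cebpb. In all, 9 runs of states 4 and 6 only were 4000 bp or longer, up to 5200 bp.

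The runs far from gene starts, defined as above, were mostly short. Of the 1189 runs more than 5 kb from any such start, 758 (63.8%) were state 6 only and 495 (41.6%) were single bins. Their median length was 400 bp and their median distance 21.2 kb, and 593 (49.9%) were centred within a protein-coding gene record. State 17 touched 56.7% of their sides, state 18 20.5% and state 2 12.4%. Of these, 47 (3.95%) lay within 2 kb of another run. The longest was 2800 bp (chr9:32694801-32697600), inside the record of Ets1, a transcription factor of lymphoid cells, 58.6 kb from the nearest such start. The next were a run of 2600 bp inside Cabin1 (chr10:75666201-75668800), 22.2 kb from Susd2, and runs of 2400 bp inside Rai1 (chr11:60139001-60141400), Arhgap23 (chr11:97414601-97417000) and Sbk1 (chr7:126271601-126274000). Cabin1 encodes a calcineurin-binding protein that is also a partner of the HIRA complex.

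The density of the runs varied along the genome. It ranged from 1.06 runs per Mb on chromosomes 14 and 18 to 2.29 on chromosome 11. The number of protein-coding records per Mb was 6.81 on chromosome 14, 5.63 on chromosome 18 and 13.2 on chromosome 11. Chromosome 7, with the most records per Mb (13.96), had 1.64 runs per Mb. Windows of 1 Mb with a member run held a median of 2, and the fullest was on chromosome 11, with 20 runs. Of these, 17 lay within 99.6 kb (chr11:3100401-3200000) over the record of Sfi1, a centrosome gene, and 16 of the 20 were at most 400 bp long. How reads mapped there could not be checked, since the map carries no counts. A window on chromosome 6 held 18 runs, 11 of them within 99.2 kb (chr6:47655001-47754200) over 6 predicted genes, from Gm40369 to Gm40363, and 1 of the 18 was at most 400 bp long. The next windows, on chromosome 10 with 18 and 17 runs, were rich in genes, with 43 and 44 listed genes, of which 10 and 11 began in a member run.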

How the data were processed

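The series comprised 6 ChIP-seq libraries. The deposited files hold 1 chromatin state map labelled wild-type HSC H3.3, in which each segment has a state number from 1 to 18, an identifier with no counts, coverage or scores; the dense and the expanded file gave identical segments on the autosomes. Per the submitters' processing notes, Bowtie2, deepTools, MACS2 and HOMER were used with mm10; only the names of the track and the files mention ChromHMM, whose version and inputs were not given in the sources used here. The values compared are those of autosomes of 1 map, so p-values measure variation along it and not between animals.

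Segments were joined with Python 3.11.15, numpy 2.4.6 and pandas 2.3.3, and figures drawn with matplotlib 3.10.9. Gene records came from RefSeq's GRCm38.p6 table. Starts came from its promoter table, which lists 17492 of 21900 protein-coding genes and none on chromosome 18. Start-based values therefore use 18 autosomes, although 19 had been planned. A gene counts where any listed start lies in a run, and the distance to gene starts also uses both ends of records without a listed start. Differences between kinds of run were tested per autosome by flipping signs (100000 resamples, two-sided, Benjamini-Hochberg over 32 tests, threshold 0.05), after the test was tested on simulated data.

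The members, the 40 gene lists and families and the tests were chosen with earlier results of these data known. The 20 families were collected by patterns in gene symbols, so some members may not belong to the process that names the family. Named genes are the first 3 members of each list that begin in a run and the first that does not. The 8 longest runs with a start, the 5 closest divergent pairs and the 5 longest runs far from gene starts are named as well. Neighbours of the length limit and the fullest windows are also named, and counts alone are given for some lists. Alternatives were other length limits, runs of 1 bin left out, gaps bridged, the expanded file, all annotated genes, other distances, either gene end, genes with close neighbours left out, and each autosome left out.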

Additional observations from a re-analysis of the deposited data

How the results depend on the processing

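No paired analysis was possible because the single map holds no replicate columns. With runs limited to under 2000 bp, the share of runs with a protein-coding start was 23.4% and the share over 5 kb from gene starts 40.4%. The share of genes was 4.25%, the median CpG ratio 0.652 and the median GC content 57.7%. Under that limit the start difference from runs of states 3 and 5 was 0.94 points, the distance difference 3.33 points, the CpG difference from mixed runs -0.0071 and the GC difference 0.94 points, none of them past the permutation test. This alternative tests fewer long runs by construction; the cause was not otherwise tested. Without runs of 1 bin the start share was 44.5% and the distant share 24.6%, and the differences from runs of states 3 and 5 were -2.45 and 3.31 points, also not past the test. With all annotated genes 6.01% of genes began in a run. With distances of 2 and 10 kb the distant share was 42.1% and 26.3%. Without genes that have a close neighbour, the NRF1 difference from mixed runs passed the test (1.45 points, adjusted p = 0.0479, permutation test). With all genes it did not (0.91 points, adjusted p = 0.315, permutation test), nor with any autosome left out. Leaving out each autosome in turn kept the start share between 33.5% and 35.2%, the distant share between 32.3% and 33.6% and the share of genes between 8.201% and 8.446%. The start difference from runs of states 3 and 5 then stayed between -7.41 and -6.10 points and the distance difference between 6.95 and 8.25 points, all past the test. The number of motif comparisons called was 1 to 2. A higher length limit and bridged gaps kept the direction and call of the start, distance, CpG and GC differences. Starts within 1 kb kept those of the start differences. The higher limit changed the members little, with 1379 promoters against 1372. The expanded file holds identical segments on the autosomes, so its values were the same by construction. The motif comparisons were repeated only without genes that have a close neighbour and without each autosome. The GC alternatives were added after the data were seen. The depth of the libraries behind the map is unknown.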
